A study of Mus musculus and Oryctolagus cuniculus and Sus scrofa with 20 samples.

Results

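The sequences described here are small RNA reads of 25 to 32 nt, the size of PIWI-interacting RNAs (piRNAs), that do not start with T and carry an A at base 10. They are called A10 tags below. A tag is a distinct read sequence with its count of reads in a library. A10 tags were chosen by length and by these bases, after tags that begin with a tRNA 5' end were removed. Summed over 20 libraries there were 1807830 A10 tags with 6530937 reads, of 19258184 tags and 108627407 reads of 25 to 32 nt and 26479743 tags of any length. The same window held 14542120 tags that start with T (1T tags) and 2887163 other tags that start with A, C or G. As A at base 10 chose the A10 tags, its presence in them is no finding, and the enrichment below compares base 10 with other bases over all tags that do not start with T (non-T tags).

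The libraries profile small RNAs of male germ cells and testes, each made from Trizol-extracted total RNA by an Illumina protocol, and rabbit RNA carried an added spike-in. From wild-type C57BL/6 mice came cultured spermatogonial stem cells (SSCs), pre-leptotene and leptotene spermatocytes (postnatal day 9), zygotene spermatocytes (day 13), pachytene spermatocytes and round spermatids (day 25) and mature sperm. Whole wild-type testes came from rabbits of postnatal day 10, 30, 60, 70, 80, 90, 110 and 180 and from an adult pig and rat. A further 3 cultured SSC libraries, from a day 15 C57BL/6 x DBA2 F1 mouse with an actin-EGFP transgene, were a wild-type control and miR-741 knockout lines made with a TALEN or a CRISPR nuclease. Those cells grew on mouse embryonic fibroblast feeders and each knockout line started from a single picked colony. Each group was 1 library, so no difference between groups had a replicate check, and only the 8 rabbit ages allowed a test.

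piRNAs guide PIWI proteins, which silence transposons in the germ line. In the ping-pong cycle a PIWI protein with a piRNA that starts with U cuts a complementary transcript opposite the bond between guide bases 10 and 11, and the cut end becomes the 5' end of a new piRNA. The first 10 bases of the new piRNA are then complementary to those of the guide, and its base 10 is an A opposite the first U of the guide. In mice, fetal and early postnatal germ cells hold piRNAs rich in transposon sequence, while pachytene piRNAs come from long noncoding transcripts and accompany MILI and MIWI.

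The pairs below are read sequences in this arrangement, and how they arose was not tested. In each, an A10 tag and a 1T tag of the same library had at least 20 reads each, their first 10 bases (in capitals, A10 tag's base 10 being the last capital) are reverse complementary, and a further tag of the library holds 20 bases that run across the joint of both on 1 strand. The pairs were chosen after their values were seen.
SSC A10 tag: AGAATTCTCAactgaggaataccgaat
SSC 1T tag: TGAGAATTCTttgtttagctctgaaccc
pachytene A10 tag: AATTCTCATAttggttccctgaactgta
pachytene 1T tag: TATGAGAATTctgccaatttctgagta
round spermatid CT025671.4 A10 tag: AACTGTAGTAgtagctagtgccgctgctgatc
round spermatid CT025671.4 1T tag: TACTACAGTTcaaagtgagagagttcaaga
round spermatid 4933440M02Rik A10 tag: CTGTTAAACAttggatctggtctctacc
round spermatid 4933440M02Rik 1T tag: TGTTTAACAGgtagatatgggagtctgt
rabbit day 80 A10 tag: AAAGAAATTAtgggatatgtactctt
rabbit day 80 1T tag: TAATTTCTTTatccagtctactgttgat
rabbit day 110 A10 tag: GCAGAATTCAgttccttatggtcacaggac
rabbit day 110 1T tag: TGAATTCTGCcaacgactggtaagatggga
rabbit day 180 A10 tag: CTGCTTAGTAttgttagtgtagttagt
rabbit day 180 1T tag: TACTAAGCAGcaggactaagtgctacct
rat A10 tag: AAAGACAAGAgggtactgtgccttaaaatt
rat 1T tag: TCTTGTCTTTgttaaattccagtccacagt

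Other abundant A10 tags varied in their complementary 1T reads. A pachytene tag of 25 nt with 3409 reads had 5375, while those shown next had few or none. They carry the A of base 10 in capitals, and coordinates are exact matches to GENCODE vM21 transcripts (GRCm38).
Gm14244 tag: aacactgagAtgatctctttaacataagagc
Mir362 tag: aatccttggAacctaggtgtgaatgc
Rny1 tag: cttctcactActgcacttgactagtctt
The Gm14244 tag lies in an exon of an antisense noncoding gene at chr2:127692460-127692490 on the plus strand. The Mir362 tag lies within a miRNA precursor at chrX:7242017-7242042 on the minus strand. The Rny1 tag lies within a Y RNA, a small cytoplasmic RNA, at chr6:47788071-47788098 on the minus strand. A10 tags by letters alone therefore include other small RNAs beside piRNAs.

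Total reads ranged from 597732 (CRISPR line) to 25908109 (mature sperm), and A10 reads from 12147 to 870034 (round spermatids). miR-741-3p, the targeted miRNA, had 80096 reads in control SSCs, 3 in the TALEN line and 5 in the CRISPR line. Marker miRNAs of the labelled cells, in reads per 1000000 of all reads, were in part as the labels say. The listed meiotic and haploid germ cell miRNAs (2 of 3 matched) summed to 81.7 for pachytene spermatocytes and 140.3 for round spermatids, against 0.835 to 4.83 in the 3 earlier spermatocyte libraries. Against the labels, they were at 33.1 in SSCs and 29.6 in the TALEN line, above mature sperm at 16.6. The 4 SSC miRNAs summed to 381.4 in SSCs and 350.9 to 562.1 in the other cultured lines, against 0.878 for pachytene spermatocytes. Stromal miRNAs (2 of 4 matched) reached 2349 in SSCs and 3221 in control SSCs, Sertoli miRNAs (2 of 2) 981.4 for zygotene spermatocytes and epithelial miRNAs (7 of 7) 2284 in mature sperm. Their part in the A10 values was not tested. In bulk libraries, fewer cells of a type and less RNA per cell cannot be told apart.

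A10 tags were a small, stage-dependent share of piRNA-sized reads. They made up 6.46% of 25 to 32 nt reads in SSCs (exact binomial 95% interval 6.45% to 6.48%), 8.96% for pre-leptotene, 8.33% for leptotene and 8.20% for zygotene spermatocytes. The share was 4.63% for pachytene spermatocytes, 4.42% for round spermatids and 4.56% in mature sperm. In the first 4 libraries it was thus above every value of the last 3. Without tags found in another mammalian order this order did not hold: the share in mature sperm became 12.1%, above SSCs (7.45%), leptotene (11.1%) and zygotene spermatocytes (9.20%), while pachytene spermatocytes (6.44%) and round spermatids (5.79%) were lowest. That filter removed unequal parts of the reads. In mature sperm it took 63.4% of A10, 66.3% of 1T and 85.0% of other non-T reads. In round spermatids it took 53.9% of A10 and 66.2% of 1T reads, and on rabbit day 180 1.83% and 3.41%. Intervals cover counting error only, since reads are PCR copies without molecular identifiers.

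The denominator moved with these shares. 1T tags held 37.4% of 25 to 32 nt reads in pre-leptotene spermatocytes, 87.6% for pachytene spermatocytes and 88.8% for round spermatids, and tRNA 5' ends held 41.2% in mature sperm. Among non-T reads alone, the order turned. A10 tags were 20.5% of them in pre-leptotene, 21.5% for leptotene and 25.2% for zygotene spermatocytes, 38.4% for pachytene spermatocytes and 41.8% for round spermatids. SSCs stood between at 29.01% and mature sperm lowest at 12.3%.

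In rabbit testes the A10 share of 25 to 32 nt reads was 8.18% on day 10, 10.24% on day 30, 8.45% on day 60 and 8.01% on day 70. It was 9.64% on day 80, 8.95% on day 90, 6.69% on day 110 and 6.82% on day 180. Both oldest ages lay below the 6 younger ages, but the share did not pass the test of a trend with age (Spearman's rho = -0.50, two-sided exact permutation p = 0.216, Benjamini-Hochberg adjusted p = 0.432 over 4 trends, n = 8; Pearson's r = -0.61, exact permutation p = 0.101). Without days 10 and 180, which lie farthest from the median age, r was -0.72. The trend passed with lengths of 26 to 31 nt (rho = -0.83, adjusted exact permutation p = 0.0308). It also passed without tags found in another mammalian order (rho = -0.93, adjusted exact permutation p = 0.00893).

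Adult rat testis had an A10 share of 4.20% and adult pig testis 4.94%. Control SSCs had 6.17%, the TALEN line 7.65% and the CRISPR line 7.39%. With 1 library each, whether the knockout lines differ from the control beyond replicate spread could not be tested, and the 3 libraries had the fewest A10 reads.

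Enrichment of A at base 10 was read as the A10 ratio: the share of non-T tags with A at base 10, divided by the mean share at bases 5 to 9 and 11 to 15 of the same tags. It was highest in young rabbit testes. On day 30, 54.2% of distinct non-T tags had A at base 10, against 25.6% at base 9 and 27.8% at base 11 and a mean of 29.5% over the comparison bases, a ratio of 1.84. Counting each distinct tag once, the ratio was 1.64 on day 10, 1.75 on day 60, 1.56 on days 70 and 80, 1.54 on day 90, 1.37 on day 110 and 1.41 on day 180. All 8 rabbit values lay above the value of every mouse, pig and rat library.

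**Figure D1:**
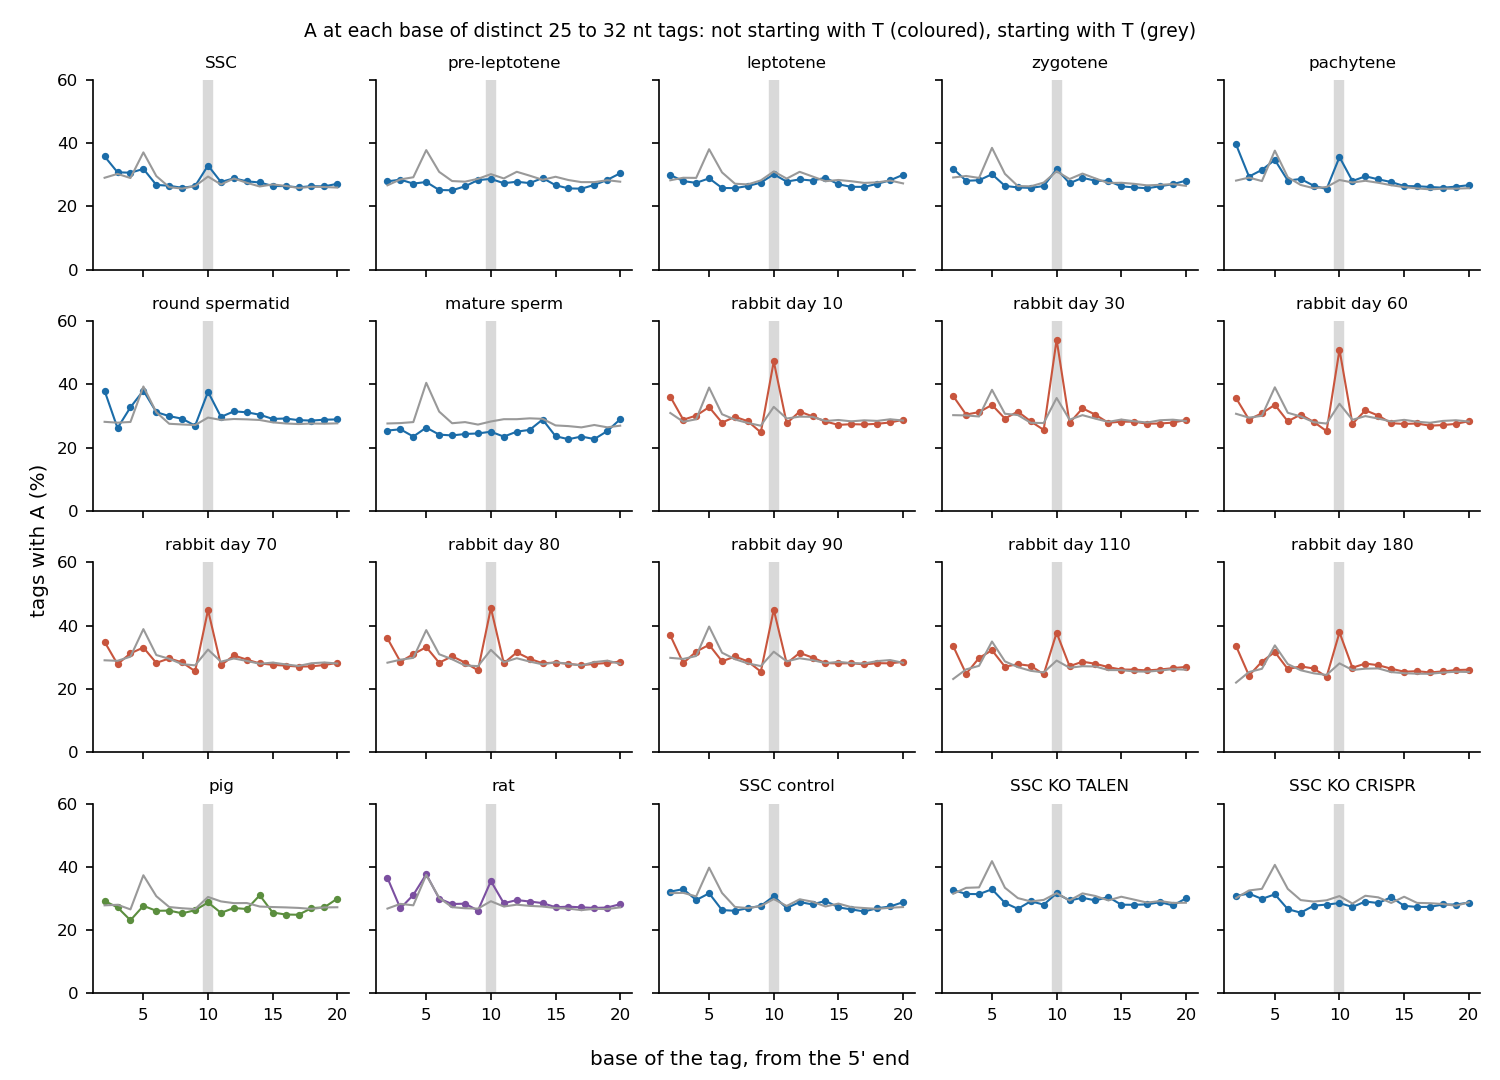
Share of distinct 25 to 32 nt tags with A (y axis, %) at each base from the 5' end (x axis), for non-T tags (coloured line) and 1T tags (grey line), 1 panel per library with base 10 shaded. The 8 rabbit panels have a spike at base 10 that reaches 54.2% on day 30, and mature sperm has 25.1% there with no spike.

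In mouse the distinct-tag ratio was 1.19 in SSCs, 1.06 for pre-leptotene, 1.10 for leptotene and 1.16 for zygotene spermatocytes. It was 1.25 for pachytene spermatocytes, 1.23 for round spermatids and 1.00 in mature sperm. Pachytene spermatocytes and round spermatids were the highest of the 7 stages, and mature sperm had no excess. The ratio was 1.21 in rat and 1.08 in pig, 1.10 in control SSCs, 1.08 in the TALEN line and 1.01 in the CRISPR line. A at base 10 was the highest of bases 5 to 15 in 12 of 20 libraries, namely all rabbit ages, SSCs and leptotene, zygotene and pachytene spermatocytes. With distinct 20-nt 5' ends in place of distinct tags it was so in 9, the rabbit ages and zygotene spermatocytes. In round spermatids (37.7% at base 10, 38.1% at base 5) and rat (35.5% and 37.7%) base 5 was higher, and base 10 exceeded both neighbours in 20 of 20 libraries.

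Weighting tags by reads changed the early mouse stages. By reads the ratio was 1.14 in SSCs, 0.806 for pre-leptotene, 0.857 for leptotene and 1.01 for zygotene spermatocytes, 1.33 for pachytene spermatocytes, 1.41 for round spermatids and 0.747 in mature sperm. Abundant tags without A at base 10 move this measure: without the 10 most abundant non-T tags it was 1.03 for pre-leptotene and 1.04 for leptotene spermatocytes. In rabbit it ran from 1.299 (day 70) to 1.63 (day 30), in rat it was 1.24 and in pig 0.921. Pachytene spermatocytes and round spermatids were thus above 1 on both measures, as were SSCs, zygotene spermatocytes, rat and all rabbit ages.

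The distinct-tag ratio fell with rabbit age (rho = -0.88, two-sided exact permutation p = 0.00724, adjusted p = 0.0290, n = 8). Pearson's r was -0.77 (exact permutation p = 0.0199, adjusted p = 0.0798), and without days 10 and 180 r was -0.96. Over days 10 to 90 alone rho was -0.77 (exact permutation p = 0.103, n = 6), and leaving out day 70, 80, 90, 110 or 180 each left the trend short of the adjusted threshold (rho from -0.93 to -0.82 and adjusted exact permutation p from 0.0270 to 0.137 over the 8 omissions). The ratio by reads showed no detectable trend (rho = -0.02, exact permutation p = 0.977; r = -0.19, exact permutation p = 0.662). Testis makeup moved with age: germ cell miRNAs were at 11.6 reads per 1000000 on day 10 and 714.3 on day 110, and stromal miRNAs at 10123 and 651.1. Age and makeup cannot be told apart here.

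Where base 10 was enriched most, it was so with each first base. Among tags starting with A, C and G on day 30 the ratio was 1.87, 1.82 and 1.79, and in pachytene spermatocytes 1.26, 1.26 and 1.24. Where the overall ratio was near 1, tags starting with G fell below it, at 0.875 in mature sperm and 0.912 in the CRISPR line. More A10 tags than other non-T tags started with A in all 20 libraries, for example 47.3% against 40.7% on day 30. 1T tags, which the selection leaves out, had ratios of 0.948 (mature sperm) to 1.19 (rabbit day 30).

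The lengths of A10 tags differed between stages. Their most frequent length by reads was 28 nt in SSCs and in pre-leptotene, leptotene and zygotene spermatocytes, 30 nt in pachytene spermatocytes and 31 nt in round spermatids and mature sperm. In the last 2 libraries 1 tag of 31 nt made up 12.5% and 13.8% of A10 reads, and over distinct A10 tags the mode was 30 nt in both. 1T reads had a mode of 27 nt in the first 4 of these libraries and 30 nt in the other 3. Reads of 29 to 31 nt were 40.7% of A10 reads in SSCs, 35.1% for zygotene spermatocytes, 48.9% for pachytene spermatocytes and 74.9% for round spermatids. MILI is known to bind shorter piRNAs than MIWI, and which protein held these tags was not measured.

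Rabbit A10 reads were longer on day 110 than on day 90. The mode was 28 nt on days 10 to 80, 27 nt on day 90 and 30 nt on days 110 and 180, and the 29 to 31 nt share was 29.8% on day 90, 65.0% on day 110 and 66.5% on day 180. For 1T reads the values were 23.6% on day 90 and 60.4% on day 110. Rat A10 reads had 63.3% at 29 to 31 nt and pig 47.3%, both with a mode of 30 nt.

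**Figure D2:**
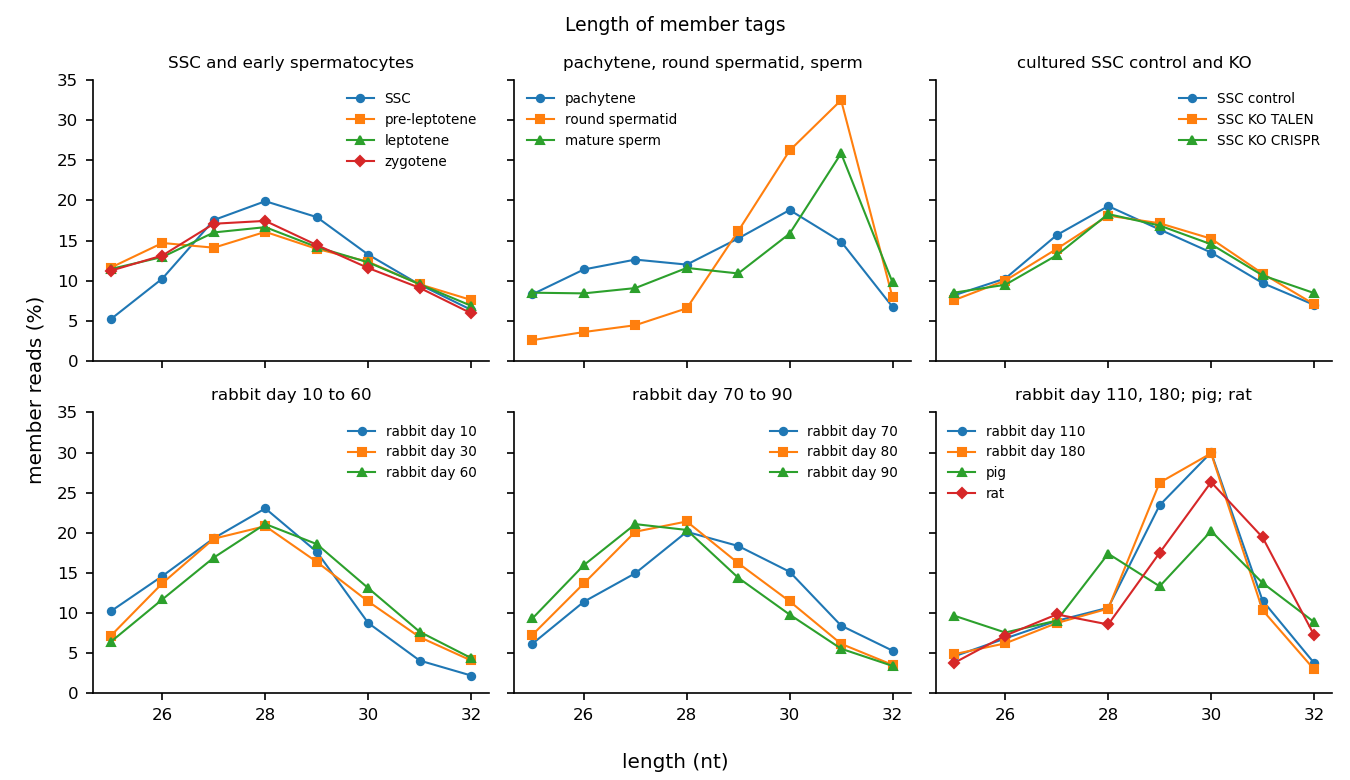
Length of A10 tags (x axis, nt) against their share of A10 reads (y axis, %), 1 line per library in 6 panels. By reads the mode is 28 nt in SSCs, 31 nt in round spermatids and moves from 27 nt to 30 nt between rabbit days 90 and 110.

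Enrichment also varied with length. On rabbit day 30 the distinct-tag ratio was 1.78 at 25 nt, 1.89 at 28 nt and 1.65 at 32 nt, and on day 10 it peaked at 28 nt with 1.77. In SSCs and pachytene spermatocytes it peaked within the window at 30 nt, with 1.28 and 1.41. In rat it was 1.25 at 30 nt and 1.93 at 35 nt, outside the window and over 2966 non-T tags. Round spermatids (1.57 at 35 nt) and rabbit day 180 (1.73) also had their higher values beyond 32 nt.

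Complementarity to 1T tags was first measured over distinct tags. The share of A10 tags whose first 10 bases are the reverse complement of the first 10 of a 1T tag was divided by the mean share for windows shifted by 1 to 5 bases, with 1T tags thinned to 32266 in each library. A shifted window also holds the A of base 10 and may start with T, so where A and T are common the ratio lies below 1 without any pairs; 1 is no neutral value. In SSCs 27.0% of A10 tags had a complement against 22.6% in shifted windows, a ratio of 1.19. The ratio was 1.00 for pre-leptotene, 1.13 for leptotene, 1.17 for zygotene and 1.14 for pachytene spermatocytes, 1.06 for round spermatids and 1.048 in mature sperm. In rabbit it ran from 1.10 (day 110) to 1.22 (day 80) with no detectable age trend (rho = 0.26, two-sided exact permutation p = 0.536, adjusted p = 0.715, n = 8; r = 0.14, exact permutation p = 0.736). It was 0.947 in pig, 1.07 in rat, 1.16 in control SSCs, 1.29 in the TALEN line and 0.960 in the CRISPR line. The unshifted window was above all 5 shifted ones in 15 of 20 libraries, and in 2 of 20 when 1T tags were not thinned. Unthinned, 92.9% of A10 tags in SSCs, 93.6% for pachytene spermatocytes and 94.1% on rabbit day 90 had a complement. This leaves little room for a difference between windows there. The share was 36.7% for pre-leptotene spermatocytes and 32.8% in mature sperm.

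Restricting partners to the 5000 most abundant 1T tags and weighting A10 tags by reads, a measure added after the data were seen, gave wider differences. On rabbit day 80, 20.8% of A10 reads had a complement at the unshifted window and 7.31% in shifted windows, a ratio of 2.84. On day 110 the values were 10.95% and 2.14% (ratio 5.13) and on day 180 10.7% and 1.99% (5.36). The day 110 A10 tag printed above, with 22468 reads, is 3.58% of that library's A10 reads and counts among them. In pachytene spermatocytes 7.77% of A10 reads had a complement against 2.73% (2.84), in SSCs 12.2% against 6.37% (1.92) and in rat 7.61% against 3.02% (2.52). In pig 4.25% had a complement against 4.68%, and in mature sperm 2.91% against 3.18%, where 1 of the 5 shifted windows alone reached 12.8%. Against shifted windows that do not start with T the ratio was 1.04 in pig and 4.83 in mature sperm, so the value in mature sperm rests on how windows are chosen.

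**Figure D3:**
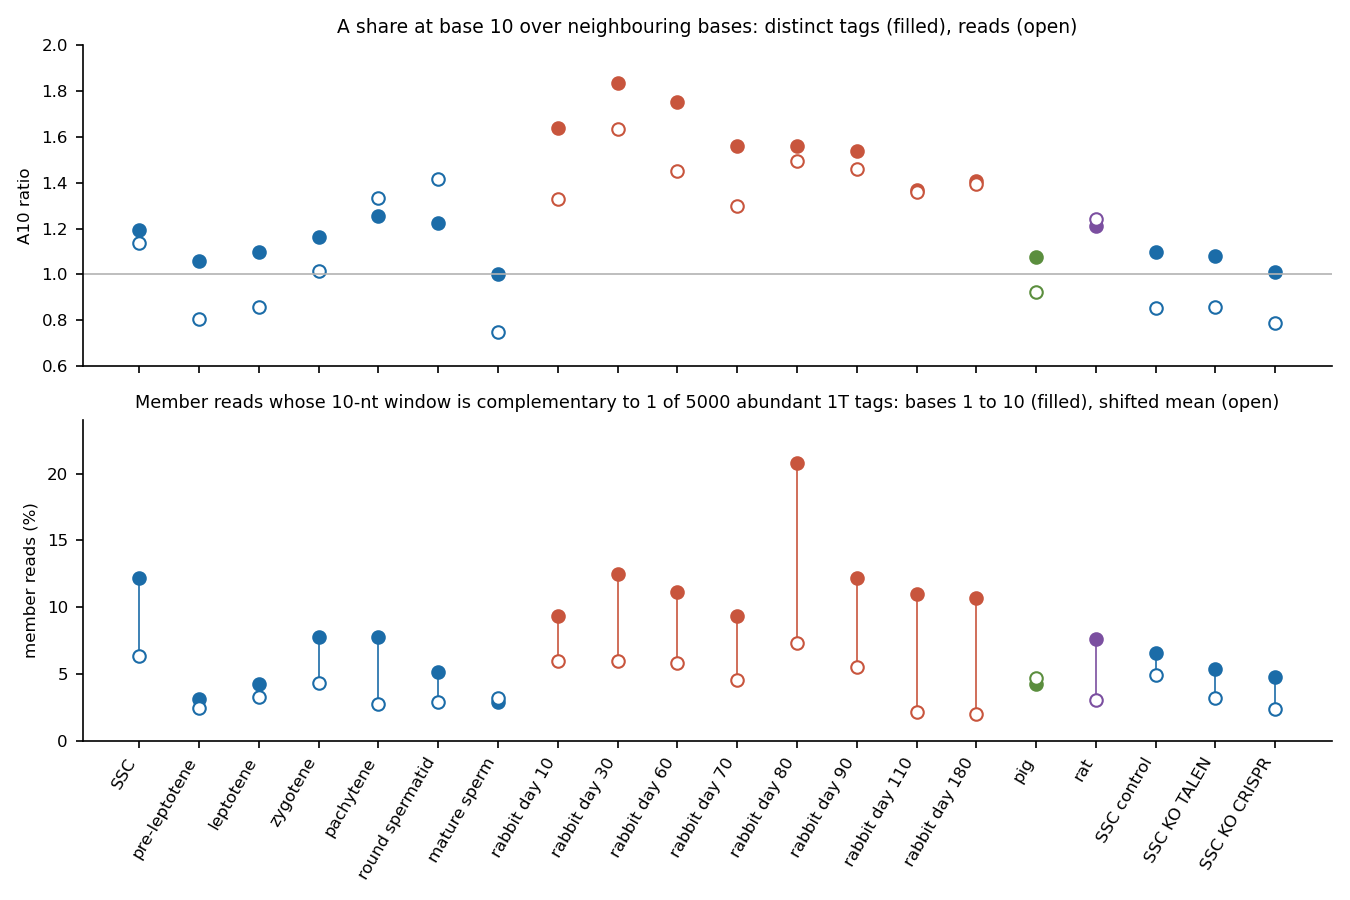
Top, A10 ratio of each library (y axis) over distinct tags (filled) and by reads (open), with a line at 1. Bottom, A10 reads (y axis, %) whose bases 1 to 10 (filled) or shifted windows (open, mean of 5) are complementary to the first 10 bases of 1 of the 5000 most abundant 1T tags, the widest gap being rabbit day 80 with 20.8% and 7.31%.

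Joined pairs, defined above, were common in some libraries and nearly missing in others. Among A10 tags with at least 20 reads, 1050 of 2863 (36.7%) were in a joined pair in SSCs, 2.53% for pre-leptotene, 4.85% for leptotene and 13.5% for zygotene spermatocytes, 923 of 4362 (21.2%) for pachytene spermatocytes, 8.46% for round spermatids and 0.919% in mature sperm. In rabbit the share was 6.40% on day 10, 20.8% on day 30, 22.6% on day 60, 21.3% on day 70, 37.7% on day 80 (324 of 859), 29.1% on day 90, 8.67% on day 110 and 9.11% on day 180. It was 6.87% in rat and 1.46% in pig (12 of 821). Control SSCs had 1 pair member among 103 tags, and the TALEN and CRISPR lines 0 of 70 and 0 of 44. Since a pair needs 20 reads on both sides, these shares move with depth and are not comparable between the wild-type SSC library and the smaller SSC libraries. Depth differed between stages too, with 6446986 1T reads in SSCs and 1047169 for pre-leptotene spermatocytes. Joined pairs were not counted at shifted windows or other overlaps. How many would be found without this arrangement was therefore not tested.

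The SSC pair was also found in later stages. Its A10 tag had 699 reads in SSCs, 30 for pre-leptotene, 56 for leptotene, 373 for zygotene and 8 for pachytene spermatocytes, and 1 for round spermatids. The 1T tag had 569, 10, 80, 153, 93 and 6 reads in the same libraries. The pachytene pair was present earlier as well, with A10 reads of 8 in SSCs, 35 for pre-leptotene, 51 for leptotene, 149 for zygotene and 173 for pachytene spermatocytes and 6 for round spermatids. Its 1T tag had 29, 53, 61, 144, 175 and 10 reads. Both sequences match several genes, so neither has 1 place of origin.

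The round spermatid pairs have 1 match each and overlap by 10 nt on the annotation. The CT025671.4 tags lie in an exon of a long noncoding RNA, the A10 tag at chr17:66194885-66194916 on the plus strand and the 1T tag at chr17:66194865-66194894 on the minus strand. They had 183 and 45 reads in round spermatids and 2 and 11 for pachytene spermatocytes. The 4933440M02Rik tags, also in a long noncoding RNA, lie at chr7:125330665-125330692 (plus strand, A10) and chr7:125330647-125330674 (minus strand, 1T), with 45 and 37 reads in round spermatids and 0 and 7 for pachytene spermatocytes.

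The 3 rabbit pairs are given as raw reads, from libraries with 1732234 (day 10) to 9396416 (day 110) reads of 25 to 32 nt, and as chosen pairs they describe only themselves. The day 80 A10 tag had 8 reads on day 10, 92 on day 30, 65 on day 60, 26 on day 70, 349 on day 80, 182 on day 90, 33 on day 110 and 41 on day 180. The day 110 A10 tag had 9 to 32 reads on days 10 to 90, 22468 on day 110 and 16768 on day 180, and its 1T tag had 0 to 2, 1499 and 1253. The day 180 A10 tag had 0 to 11 reads up to day 90, 1454 on day 110 and 1392 on day 180, and its 1T tag 0 to 2, 2121 and 2020. The rat pair had 96 A10 reads and 247 1T reads.

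Overlap was also placed on mouse transcripts. Among A10 tags with a GENCODE match, 21.5% in SSCs overlapped a 1T tag on the other strand by 10 nt, against a mean of 19.4% for overlaps of 5 to 9 and 11 to 15 nt, each over tags with A at the last overlapping base. The ratio of 10 nt to that mean was 1.11 in SSCs, 1.28 for pre-leptotene, 1.34 for leptotene, 1.22 for zygotene and 1.13 for pachytene spermatocytes, 1.36 for round spermatids and 1.65 in mature sperm. It was 1.64 in control SSCs, 1.86 in the TALEN line and 1.45 in the CRISPR line. Over distinct tags, 10 nt was the most frequent of 5 to 15 nt in 10 of 10 mouse libraries, though in SSCs by 21.51% to 21.46% at 11 nt. With tags of 1 match only it was so in 5 of 10. Weighted by reads, another overlap was higher in SSCs (41.5% at 10 nt, 41.8% at 11 nt) and round spermatids (7.11%, and 12.6% at 12 nt). The same held by reads for pre-leptotene spermatocytes, mature sperm and the CRISPR line.

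**Figure D4:**
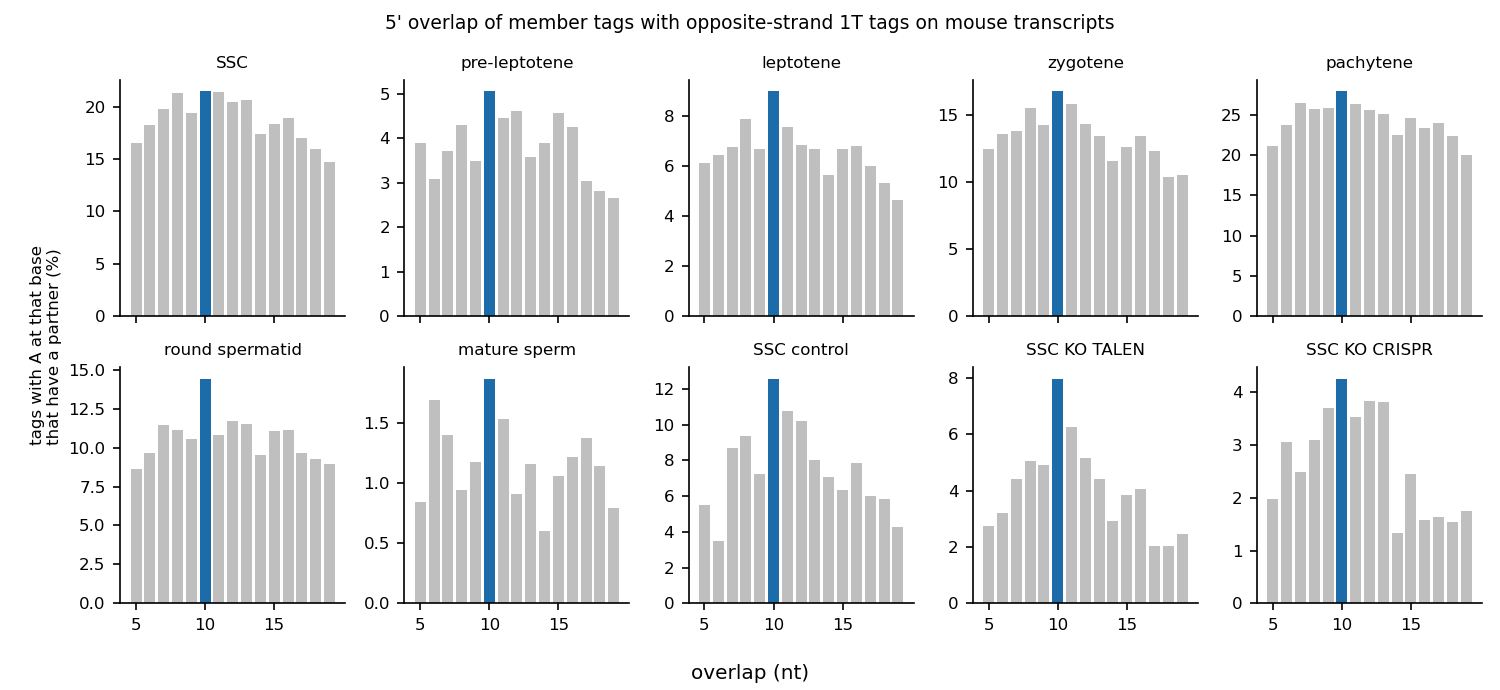
5' overlap of A10 tags with opposite-strand 1T tags on GENCODE transcripts (x axis, nt, 10 nt in blue), for 10 mouse libraries. The y axis (%, scaled per panel) is the share with such a partner among distinct A10 tags that have A at the last overlapping base. The bar at 10 nt is the tallest of 5 to 15 nt in each, by the smallest margin in SSCs (21.51% against 21.46%).

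The transcripts matched set A10 tags apart from other non-T tags. In SSCs 22.7% of A10 reads matched transcripts in both orientations, as repeated sequence does, against 6.32% of other non-T reads and 13.7% of 1T reads. The A10 and other non-T values were 7.28% and 2.85% for pre-leptotene, 11.5% and 3.47% for leptotene, 17.8% and 5.76% for zygotene and 6.27% and 2.29% for pachytene spermatocytes, 1.70% and 0.932% for round spermatids and 4.81% and 1.61% in mature sperm. A10 was higher than other non-T in all 10 mouse libraries, without a replicate check in any. Against 1T reads the order varied. 1T reads were higher for pre-leptotene (9.85%) and leptotene spermatocytes (12.3%) and level with A10 reads in the CRISPR line (8.90% and 8.89%). In the other mouse libraries A10 reads had the higher share. Of reads matching 1 orientation only, 21.8% of A10 reads were antisense in pachytene spermatocytes against 13.3% of other non-T reads, and 11.2% against 4.70% in SSCs. The order was the opposite in round spermatids, with 9.71% for A10 reads against 10.5% for other non-T reads, and in mature sperm, with 6.08% against 6.60%. Over distinct tags the A10 value was the higher in both, 18.02% against 11.6% and 9.14% against 7.64%. Between 40.4% (SSCs) and 76.7% (pachytene) of A10 reads matched no transcript, and no genome or repeat annotation was used here.

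**Figure D5:**
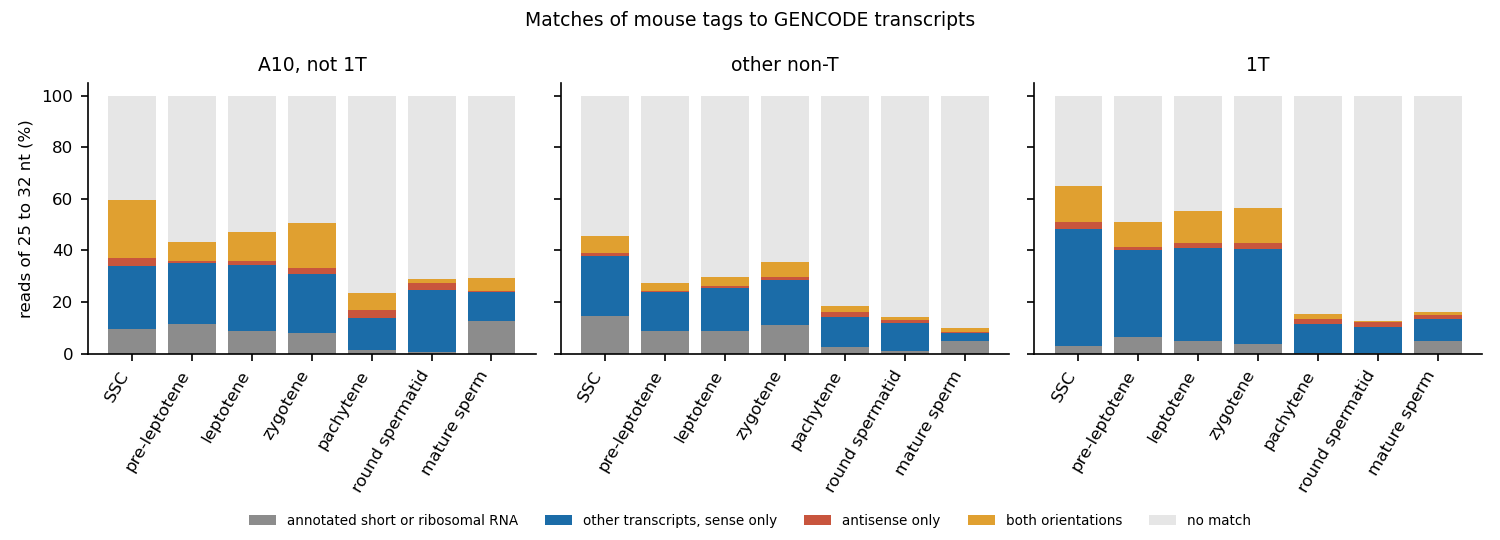
Share of 25 to 32 nt reads (y axis, %) of 7 mouse libraries (x axis) by match to GENCODE transcripts, for A10 tags, other non-T tags and 1T tags. Matches in both orientations hold 22.7% of A10 reads in SSCs and 1.70% for round spermatids.

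The leading genes by A10 reads, named after their values were seen, differed between some stages and were shared by others. By sequence match, Tmem38b led for pre-leptotene (0.859%), leptotene (1.14%) and zygotene spermatocytes (0.917%) and in the TALEN (1.90%) and CRISPR lines (3.20%). Its reads came from 3 or 4 tags in each. The most abundant of these in the TALEN and CRISPR lines were each present in 20 of 20 libraries, rabbit, pig and rat included. The match therefore does not show that the reads come from Tmem38b, and their origin was not tested. D10Wsu102e held 1.27% of A10 reads in SSCs over 1890 tags, of which 1655 of 8407 reads were antisense. For zygotene spermatocytes it held 0.815%, behind Tmem38b. In pachytene spermatocytes the leading genes were noncoding, with Gm49794 at 0.971%, Gm21269 at 0.871% (3284 of 7062 reads antisense), Gm14244 at 0.573% and Gm10619 and Gm10505 at 0.441% each. In round spermatids Gm14244 held 14.2%, and the tag printed above made up 87.5% of its reads. That tag had 108353 reads in round spermatids, 2449 for pachytene spermatocytes and 3285 in mature sperm, and 1 to 18 in the 4 earlier stages. It was also listed with 11 to 43 reads in the 8 rabbit libraries, and their origin was not tested.

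Several abundant A10 tags match RNAs other than piRNAs. The Mir362 tag had 9307 reads in pre-leptotene spermatocytes (3.71% of A10 reads), 5300 for leptotene and 2542 for zygotene spermatocytes, 2668 in SSCs, 64 for pachytene spermatocytes and 5 for round spermatids. The Rny1 tag had 3195 reads in pre-leptotene spermatocytes and 8 for round spermatids. Tags that share the first 18 bases of the most abundant A10 tag of mature sperm, which matches no transcript used here, were 22.0% of A10 reads there, 4.49% in SSCs and 0.0623% for round spermatids. Annotated short and ribosomal RNAs held 12.5% of A10 reads in mature sperm, 9.49% in SSCs and 1.24% for pachytene spermatocytes. Leaving those out moved the distinct-tag A10 ratio by little, from 1.19 to 1.20 in SSCs and from 1.00 to 1.01 in mature sperm.

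From pachytene spermatocytes to round spermatids, A10 tags were compared as reads per 1000000 reads of 25 to 32 nt, over the 1119 with at least 100 reads in either library. At least 4-fold higher in round spermatids were 352 (31.5%), where 21.6% of all such tags were. The share was 29.7% for other non-T tags and 20.8% for 1T tags, so A10 tags were close to other non-T tags. At least 4-fold lower were 307 (27.4%), where 27.5% of all, 25.0% of other non-T and 27.6% of 1T tags were. A tag could be kept through 1 library alone, which by that choice tends to place it higher there. The median log2 difference was 0.67 for A10 tags, 0.73 for other non-T tags and 0.32 over all tags. Length divided them: A10 tags of 25 to 28 nt had a median of -2.12 with 51.8% lower, and those of 29 to 32 nt a median of 1.495 with 40.4% higher. With at least 1000 reads, 29 were higher and 8 lower.

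Between rabbit days 90 and 110, a comparison added after the data were seen, 403 of 491 A10 tags (82.1%) were at least 4-fold higher, where 87.9% of all tags were. At least 4-fold lower were 64 (13.0%), where 6.87% of all were. The median log2 difference was 4.38 for A10 tags and 4.20 over all. Tags could reach 100 reads in 1 library alone, and day 110 had 9396416 reads of 25 to 32 nt against 3077551 on day 90. A tag kept through day 110 alone tends by that choice to be higher there, so these shares describe the tags kept and do not show a change of tags of this size in general.

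Among rabbit ages, sequences of A10 tags were shared most between the oldest. Of A10 reads on day 180, 75.7% were in tags also present on day 110, and 67.6% the other way. Days 10 to 90 shared 24.6% to 46.2% with each other, and days 110 and 180 had 27.2% to 38.6% of A10 reads in tags present at 1 of those ages, a range within that of the younger ages. In mouse 75.8% of round spermatid A10 reads were in tags found in pachytene spermatocytes, and 56.1% the other way. For SSCs, 9.66% of pachytene A10 reads were in tags found in SSCs, but 34.3% of SSC A10 reads were in tags found in pachytene spermatocytes. Mature sperm had 61.3% of A10 reads in tags found in SSCs and 56.8% in tags found in round spermatids. Over distinct A10 tags of mature sperm the order was the opposite, with 9.78% found in SSCs and 17.1% in round spermatids. Depth was not equalised for these shares, and tags with 1 read were 36.5% of A10 tags in SSCs and 77.1% on rabbit day 90. The same shares were not taken for 1T or other non-T tags. Whether this sharing is particular to A10 tags was therefore not tested.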

How the data were processed

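The authors deposited, for each library, distinct read sequences with raw read counts, not normalised. Bowtie and the builds OryCun2.0 (rabbit), Rnor_6.0 (rat), Sscrofa10.2 (pig) and GRCm38 (mouse) are named in the submitters' processing notes, without roles; trimming is not given in the sources used here. Groups follow the sample titles. Tags of 25 to 32 nt that begin with 1 of 26 tRNA 5' prefixes of 18 nt, written from knowledge of the field, were removed. The members, lists and tests were chosen with earlier results of these data known. Tags that hold the 5' adapter (0.0250% to 4.69% of A10 reads) were kept. Partners were thinned with seed 20. Mouse tags were matched exactly to GENCODE vM21 transcripts; the planned match to the genome was not run. Counts of 0 were set to 3 for folds. Named tags are the 3 most abundant A10 tags of a library, and joined pairs were chosen after their values were seen. Mouse tags that match no reference or repeat widely are not printed. The printed rabbit and rat tags were not matched to a reference of their species. Trends used exact permutation tests (scipy 1.17.1, numpy 2.4.6, pandas 2.3.3, Python 3.11.15). The measures were tested on simulated tags with and without planted pairs. Labels do not say how many animals a library holds.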

Additional observations from a re-analysis of the deposited data

How the results depend on the processing

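No paired analysis was possible because each group has 1 library. The cause of the changes below was not tested. The age trend of the A10 share passed the threshold with 26 to 31 nt (rho = -0.83) and without tags of another order (-0.93). That of the A10 ratio by reads turned positive with at least 2 reads a tag (0.19), without tRNA removal (0.67) and on leaving out ages (-0.43 to 0.25). That of the distinct-tag A10 ratio missed the threshold with at least 2 reads (-0.83) and in 5 of 8 omissions of an age (-0.93 to -0.82). That of the complement ratio turned negative with 26 to 31 nt (-0.45), without tRNA removal (-0.048), with tRNA prefixes from base 2 or 3 (-0.24), unthinned partners (-0.17), without tags of another order (-0.14) or with the adapter (-0.10), with 20-nt 5' ends (-0.10) and with windows not starting with T (-0.21); omitting ages gave 0 to 0.68.

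Libraries with base 10 highest by reads went from 7 to 4 (at least 2 reads), 2 (no tRNA removal), 11 (without the 10 most abundant tags), 14 (against bases 9 and 11) and 15 (without tags of another order), and by distinct tags from 12 to 20 (against bases 9 and 11) and 9 (20-nt 5' ends, without SSCs and leptotene and pachytene spermatocytes). Complement above every shifted window went from 15 to 2 libraries with unthinned partners and 12 with 20-nt 5' ends. Where nearly all A10 tags have a complement among unthinned partners, as in SSCs, that setting leaves little room for a difference. With at least 1000 reads, 29 A10 tags were higher and 8 lower in round spermatids, and with 1 match a 10-nt overlap led in 5 mouse libraries.

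The A10 ratio by reads crossed 1 without tRNA removal in SSCs (0.882), zygotene spermatocytes (0.891) and rabbit day 10 (0.936). Without the 10 most abundant tags it did in pre-leptotene (1.03) and leptotene spermatocytes (1.04) and the TALEN line (1.00). Without tags of another order it did in pre-leptotene (1.10) and leptotene spermatocytes (1.13), pig (1.17), control SSCs (1.13) and the TALEN line (1.10), and against bases 9 and 11 in mature sperm (1.16) and pig (1.06). Over distinct tags it did in mature sperm without tRNA removal (0.995) and the CRISPR line with at least 2 reads (0.985). The complement ratio crossed 1 with unthinned partners in SSCs (0.989), pre-leptotene (0.946), leptotene (0.979), zygotene (0.984) and pachytene spermatocytes (0.993), round spermatids (0.987), mature sperm (0.996), rabbit days 70 (0.999) and 90 (1.00) and rat (0.990). In pre-leptotene spermatocytes it also did without tRNA removal (0.965), with prefixes from base 2 or 3 (0.945) and without the adapter (0.974). With the 5000 top partners it did in pig (1.08) and the CRISPR line (1.42), where 26 to 31 nt (1.01) and at least 2 reads (1.23) did too. The small libraries of the knockout experiment, with 12147 to 28731 A10 reads, limit pairs with at least 20 reads.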
